A study of Saccharomyces cerevisiae with 16 samples.

Results

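The genes described are the nuclear-encoded respiratory chain genes of budding yeast whose standard names start with *SDH*, *QCR*, *COX* or *ATP* followed by a digit. They were chosen by name alone, from the array probes with an open reading frame identifier starting with Y, and 53 of the 6256 genes on the array matched. By complex, 4 genes encode subunits of succinate dehydrogenase (complex II), 5 its assembly factors and a second flavoprotein isoform, 6 subunits of the cytochrome bc1 complex (complex III), 9 subunits and 10 assembly factors of cytochrome c oxidase (complex IV), 5 subunits of the F1 part of ATP synthase, 8 subunits of its Fo part and stalk, and 6 its assembly factors and expression factors. Altogether 32 of the genes encode subunits and 21 the assembly-related proteins.

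Electrons from succinate enter the chain at complex II, pass through ubiquinone to complex III, and travel on cytochrome c to complex IV, where oxygen is reduced. Complexes III and IV pump protons, and ATP synthase uses the gradient to make ATP. A few core subunits of complexes III and IV and of Fo come from mitochondrial DNA, so these machines are built from both genomes with the help of dedicated assembly factors. Sporulating yeast lives on acetate, a non-fermentable carbon source, and respiration is needed for entry into meiosis.

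The study asked how global RNA levels depend on Ime2, a meiosis-specific protein kinase, as cells enter meiosis. The strains were the *ime2Δ* strain YGB221 (*ime2Δ::TRP1*) and the WT strain DSY1089, both SK1-congenic diploids. Both carried heteroalleles of *his4* (*his4B/his4X*) and *arg4* (*arg4-BglII/arg4-NspI*) and were homozygous for *trp1::hisG*, *leu2::hisG*, *ura3*, *lys2* and *ho::LYS2*, and the *ime2Δ* allele was homozygous too. Cells passed from glycerol plates through glucose medium (YPD) and acetate medium (YPA) to sporulation medium, and RNA was taken at 0, 2, 4 and 6 h after transfer from 2 independent experiments per strain. This gave 8 groups of 2 one-color Agilent arrays, 16 arrays in all, and aliquots of different times with the same number may share a culture. Each strain was represented by a single strain isolate, and RNA was from the whole culture, so fewer cells in a given state and less RNA per cell cannot be told apart.

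All levels below are log2 of the processed signal relative to the median gene of the same array, so a level of 0 is that of the median gene and no level is set against that of another gene. Differences are on the same log2 scale and are given ± SE from 1 limma fit over the 8 groups, with Benjamini-Hochberg adjusted p over 6254 genes and a threshold of 0.05. Within each list, genes were selected for full values by the size of their change at 6 h in WT cells or of their difference between strains at 6 h, and any other of the 53 genes given singly is marked as chosen after its values were seen. Replicate arrays correlated at 0.988 to 0.994 across genes, 94.9% to 98.3% of genes were well above background per array, and all 53 respiratory chain genes were well above background and unsaturated on all 16 arrays. The deleted gene *IME2* read -11.99 to -11.12 on the *ime2Δ* arrays, where it did not clear background, against 2.48 to 5.43 on the WT arrays. *TRP1*, the inserted marker, was at 0.49 to 1.63 in *ime2Δ* cells, against -1.55 to 0.41 in WT cells. Of the 6 middle sporulation genes listed as stage markers, 6 rose in WT cells at 4 h and at 6 h, and 6 were lower in *ime2Δ* cells than in WT cells at both times. The strains already differed in stage markers at 0 h, where 4 of these 6 genes were lower and 1 higher in *ime2Δ* cells (median difference -3.47) and 5 of 6 early meiotic genes were lower (median difference -1.64). The median early gene levels at 0 h were -4.25 and -3.69 on the *ime2Δ* arrays against -2.05 and -2.56 on the WT arrays. At 2 h 5 of 6 middle and 3 of 6 early genes were lower in *ime2Δ* cells. All changes from 0 h and the comparison of changes between strains use these 0 h arrays, and the part of the 0 h differences in them was not tested. Replicates 1 and 2 of all groups lay on separate slides, and on each slide the *ime2Δ* arrays filled 1 column and the WT arrays the other, so strain and slide column cannot be told apart.

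The median level of the respiratory chain genes was above that of 0 h on every later array of both strains. On the individual arrays, the median level of the 53 genes in *ime2Δ* cells was 1.90 and 1.94 at 0 h, 2.56 and 2.83 at 2 h, 2.45 and 2.67 at 4 h, and 2.37 and 2.49 at 6 h. In WT cells it was 1.32 and 1.64 at 0 h, 2.67 and 3.22 at 2 h, 3.003 and 2.98 at 4 h, and 2.16 and 2.26 at 6 h. No later array of a strain overlapped its 0 h arrays, and the WT medians at 6 h were below those at 2 and 4 h. Considering single genes, 41 of 53 had their lowest mean level at 0 h in *ime2Δ* cells and 38 of 53 in WT cells. The highest mean level fell at 2 h for 21 genes and at 6 h for 19 genes in *ime2Δ* cells, whereas in WT cells it fell at 4 h for 20 genes and at 2 h for 15.

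Compared with 0 h, in *ime2Δ* cells 28 of 53 genes rose and 1 fell at 2 h, when 17.6% of all genes tested rose and 22.1% fell. At 4 h in *ime2Δ* cells 25 rose and 4 fell, against 23.4% and 26.9% of all genes, and at 6 h 23 rose and 4 fell, against 24.5% and 30.1%. In WT cells 39 rose and 3 fell at 2 h, against 22.2% and 27.2% of all genes, and 41 rose and 5 fell at 4 h, against 30.7% and 31.8%. By 6 h in WT cells 30 rose and 3 fell, against 35.3% and 35.7%. The median change of the 53 genes was 0.65, 0.44 and 0.40 at 2, 4 and 6 h in *ime2Δ* cells and 0.89, 1.09 and 0.68 in WT cells, whereas the median over all genes tested lay between -0.10 and -0.01 in the 6 comparisons. Within slides, the median change of the 53 genes at 2, 4 and 6 h was 0.46, 0.37 and 0.43 for replicate 1 and 0.81, 0.56 and 0.46 for replicate 2 in *ime2Δ* cells, and 0.89, 1.12 and 0.92 for replicate 1 and 0.98, 0.97 and 0.56 for replicate 2 in WT cells. With arrays scaled to the 75th percentile, 35 rose and 1 fell in *ime2Δ* cells at 4 h, against 32.8% and 19.1% of all genes. Leaving out replicate 2 of the *ime2Δ* 2 h arrays lowered the count of genes that rose at 2 h to 18, and leaving out replicate 2 of the *ime2Δ* 4 h arrays lowered that at 4 h to 15.

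Subunit genes and complex II held most of the genes that rose. Among the 32 subunit genes, 20, 16 and 13 rose at 2, 4 and 6 h in *ime2Δ* cells and 30, 30 and 18 in WT cells, and the 1 gene that fell in *ime2Δ* cells at each time, and in WT cells at 2 and 4 h, was *COX5B*. Among the 21 assembly-related genes, 8, 9 and 10 rose in *ime2Δ* cells and 9, 11 and 12 in WT cells. Of these, 5 in each comparison were the complex II genes *SDH5* to *SDH9*. Outside complex II, 3, 4 and 5 of 16 assembly-related genes rose and 0, 3 and 3 fell in *ime2Δ* cells. In WT cells 4, 6 and 7 of the 16 rose and 2, 4 and 3 fell. Among all genes tested, 17.6%, 23.4% and 24.5% rose and 22.1%, 26.9% and 30.1% fell in *ime2Δ* cells. The shares in WT cells were 22.2%, 30.7% and 35.3% higher and 27.2%, 31.8% and 35.7% lower. Whether subunit and assembly-related genes differed was not tested.

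**Figure D1:**
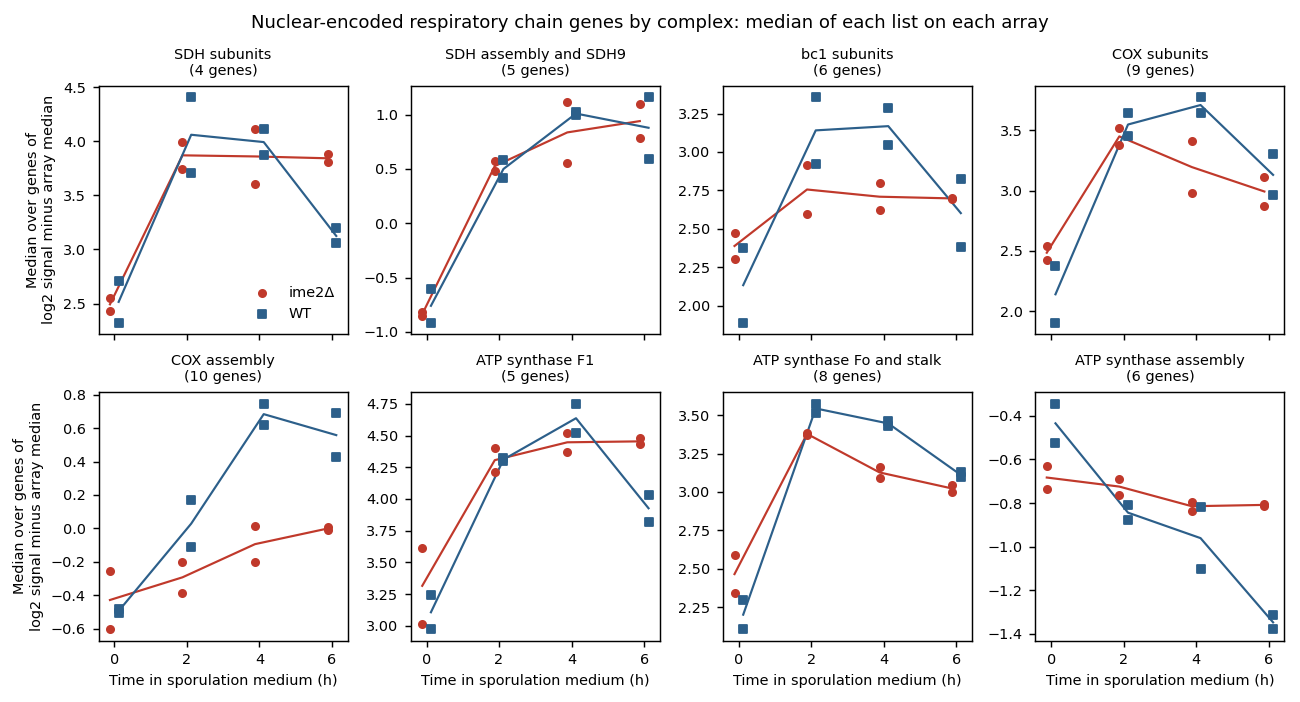
Median level of each gene list on every array (y axis, log2 signal relative to the array median) against hours in sporulation medium (x axis), with *ime2Δ* arrays as circles, WT arrays as squares and lines through the mean of the 2 arrays. The mean of each subunit list is lowest at 0 h in both strains.

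In complex II nearly all genes rose, when 17.6% to 24.5% of all genes tested rose in *ime2Δ* cells and 22.2% to 35.3% in WT cells. All 4 subunit genes were upregulated at 2, 4 and 6 h in *ime2Δ* cells and at 2 and 4 h in WT cells, and 3 of 4 at 6 h in WT cells, with median changes of 1.35, 1.37 and 1.51 in *ime2Δ* cells and 1.57, 1.82 and 0.94 in WT cells. *SDH4*, which encodes a membrane anchor subunit, was at 2.42 and 2.49 at 0 h, 3.97 and 4.22 at 2 h, 3.60 and 4.28 at 4 h, and 4.44 and 4.46 at 6 h in *ime2Δ* cells. In WT cells *SDH4* was at 2.32 and 2.73 at 0 h, 4.14 and 4.50 at 2 h, 4.99 and 4.86 at 4 h, and 4.66 and 4.69 at 6 h. The 0 h arrays were the lowest of each strain by more than a log2 unit, and the change at 6 h was 1.99 ± 0.22, adjusted p = 1.35e-05 in *ime2Δ* cells and 2.15 ± 0.22, adjusted p = 1.98e-06 in WT cells. At 4 h, the *ime2Δ* arrays lay below both WT arrays, a difference of -0.99 ± 0.22, adjusted p = 0.00526, but at 6 h the difference was -0.23 ± 0.22, adjusted p = 0.392.

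The other membrane anchor gene, *SDH3*, had levels of 1.66 and 1.26 at 0 h, 3.52 and 3.58 at 2 h, 3.54 and 3.63 at 4 h, and 3.73 and 3.46 at 6 h in *ime2Δ* cells. WT cells had *SDH3* levels of 1.24 and 1.49 at 0 h, 3.25 and 3.68 at 2 h, 3.45 and 3.71 at 4 h, and 2.95 and 2.27 at 6 h. The strains overlapped through 4 h, and at 6 h both WT arrays fell below both *ime2Δ* arrays. *SDH3* was then 1.98-fold as high in *ime2Δ* cells (log2 difference 0.99 ± 0.24, adjusted p = 0.00296). *SDH1*, the flavoprotein subunit that oxidizes succinate, stood at 3.45 and 3.42 at 0 h, 4.26 and 4.38 at 2 h, 4.21 and 4.36 at 4 h, and 4.03 and 4.01 at 6 h in *ime2Δ* cells. In WT cells *SDH1* stood at 3.45 and 3.62 at 0 h, 4.03 and 4.62 at 2 h, 3.94 and 4.16 at 4 h, and 3.20 and 3.03 at 6 h. It had the same 6 h pattern, with both WT arrays below both WT 0 h arrays (change -0.42 ± 0.19, adjusted p = 0.0633) and both *ime2Δ* arrays above theirs (change 0.59 ± 0.19, adjusted p = 0.0196), and it was 1.87-fold as high in *ime2Δ* cells (log2 difference 0.91 ± 0.19, adjusted p = 0.00115). The rise of *SDH1* at 6 h in *ime2Δ* cells lost significance without any 1 of its 4 arrays, with adjusted p of 0.0617 to 0.0725. The 6 h differences between strains of *SDH1* and *SDH3* held under each omission.

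Among the assembly-related genes of complex II, 5 of 5 were called higher at every time in both strains. The shares of all genes called higher were 17.6% to 24.5% in *ime2Δ* cells and 22.2% to 35.3% in WT cells. This count rested in part on single arrays at each time. At 4 h the calls of *SDH8* in *ime2Δ* cells and *SDH5* in WT cells were lost in some omissions. The same held at 6 h for *SDH5* and *SDH8* in *ime2Δ* cells and *SDH5* in WT cells. At 2 h quantile scaling lost *SDH7* in *ime2Δ* cells (adjusted p = 0.1) and in WT cells (0.0889), and *SDH5* in WT cells (0.0545). More calls at 2 h were lost in omissions. In WT cells 2 of 5 were called without replicate 1 (*SDH5*, *SDH7* and *SDH8* lost) or replicate 2 (*SDH5*, *SDH7* and *SDH9* lost) of the WT 2 h arrays and 3 of 5 without either WT 0 h array. In *ime2Δ* cells 3 of 5 were called without replicate 1 of the 0 h arrays (*SDH5* and *SDH7* lost). *SDH7* was lost there without any 1 of its 4 arrays (adjusted p of 0.0958 to 0.115). *SDH6*, which encodes an assembly factor, had the largest 6 h change of the 53 genes in WT cells. Its levels were -1.93 and -2.52 at 0 h, 0.57 and 0.41 at 2 h, 1.03 and 1.11 at 4 h, and 0.78 and 0.67 at 6 h in *ime2Δ* cells. For WT cells the *SDH6* levels were -1.89 and -2.19 at 0 h, 0.84 and 0.58 at 2 h, 1.02 and 0.63 at 4 h, and 1.76 and 1.16 at 6 h. At 6 h it was 7.75-fold its 0 h level in *ime2Δ* cells and 11.3-fold in WT cells. Both *ime2Δ* arrays lay below both WT arrays at 6 h, with a difference of -0.73 ± 0.24, adjusted p = 0.0184. That difference lost significance without replicate 1 of the WT 6 h arrays (adjusted p = 0.174) or replicate 2 of the *ime2Δ* 6 h arrays (adjusted p = 0.0804) and under the 75th percentile scaling (-0.45, adjusted p = 0.131).

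*SDH9* (YJL045W), a paralog of *SDH1* that encodes a minor flavoprotein isoform, had the largest change of the 53 genes in *ime2Δ* cells. On the *ime2Δ* arrays it was at -3.87 and -2.98 at 0 h, -0.01 and 0.48 at 2 h, 0.56 and 1.64 at 4 h, and 1.50 and 1.74 at 6 h. WT arrays gave -1.99 and -1.57 at 0 h, -0.56 and 1.14 at 2 h, 1.22 and 1.91 at 4 h, and 0.57 and 1.68 at 6 h. Both *ime2Δ* arrays at 0 h lay below all other arrays. The change at 6 h was 5.05 ± 0.54, adjusted p = 9.78e-06, or 33.1-fold, in *ime2Δ* cells and 2.91 ± 0.54, adjusted p = 0.000343, or 7.49-fold, in WT cells. The strains were not separated by the test at 0 h, with a difference of -1.65 ± 0.54, adjusted p = 0.106, or at 6 h, with a difference of 0.49 ± 0.54, adjusted p = 0.442. The 2 h change in WT cells, 2.07 ± 0.54, adjusted p = 0.00728, lost significance without replicate 2 of the WT 2 h arrays (adjusted p = 0.1), and whether the probe also reads RNA of its paralog was not tested.

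Among complex III subunit genes, more were called higher in WT cells than in *ime2Δ* cells. In *ime2Δ* cells 2, 1 and 0 of the 6 *QCR* genes rose at 2, 4 and 6 h, and in WT cells 5, 5 and 2 did, while none fell. Among all genes tested, 17.6%, 23.4% and 24.5% rose and 22.1%, 26.9% and 30.1% fell in *ime2Δ* cells. The shares in WT cells were 22.2%, 30.7% and 35.3% higher and 27.2%, 31.8% and 35.7% lower. *QCR6*, which encodes the acidic hinge subunit, was at 2.38 and 2.45 at 0 h, 2.56 and 2.83 at 2 h, 2.45 and 2.66 at 4 h, and 2.69 and 2.37 at 6 h in *ime2Δ* cells. WT cells had *QCR6* at 1.89 and 2.40 at 0 h, 2.94 and 3.63 at 2 h, 3.50 and 3.67 at 4 h, and 3.20 and 3.04 at 6 h. The 8 *ime2Δ* arrays thus lay between 2.37 and 2.83, with a change at 4 h of 0.14 ± 0.24, adjusted p = 0.664, while the WT arrays from 2 h on were above all the *ime2Δ* arrays, with a change at 4 h of 1.44 ± 0.24, adjusted p = 0.000182. The difference between strains was -1.03 ± 0.24, adjusted p = 0.00588 at 4 h and -0.59 ± 0.24, adjusted p = 0.0437 at 6 h. The 6 h difference lost significance without WT replicate 1 (adjusted p = 0.154), WT replicate 2 (0.0783) or *ime2Δ* replicate 2 (0.223) of that time, and under the 75th percentile scaling it was -0.31 (adjusted p = 0.27). *QCR9*, a small subunit, was called in WT cells at 6 h alone, where its levels were 2.28 and 2.79 at 0 h and 3.37 and 3.33 at 6 h (change 0.81 ± 0.25, adjusted p = 0.00961), and in *ime2Δ* cells it stayed between 2.59 and 2.99 (change at 6 h 0.02 ± 0.25, adjusted p = 0.953). Without replicate 1 of the WT 0 h arrays the *QCR9* change was not called (adjusted p = 0.109).

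*QCR2*, which encodes a core subunit, ran the other way at 6 h. It was at 2.23 and 2.51 at 0 h, 2.76 and 3.37 at 2 h, 2.58 and 3.03 at 4 h, and 2.76 and 2.83 at 6 h in *ime2Δ* cells. In WT cells *QCR2* was at 1.88 and 2.22 at 0 h, 2.99 and 3.53 at 2 h, 3.003 and 3.40 at 4 h, and 1.68 and 2.03 at 6 h. Both WT arrays at 6 h had dropped back to the level of the WT 0 h arrays, below both *ime2Δ* arrays, and the difference was 0.94 ± 0.27, adjusted p = 0.00752. Without replicate 1 of the WT 6 h arrays it was 0.77 (adjusted p = 0.0599).

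In complex IV, 6, 5 and 4 of the 9 subunit genes rose at 2, 4 and 6 h in *ime2Δ* cells and 8, 8 and 6 in WT cells. Among all genes tested, 17.6%, 23.4% and 24.5% rose in *ime2Δ* cells and 22.2%, 30.7% and 35.3% in WT cells. *COX7* and *COX9*, which encode small membrane subunits, rose at every time in both strains and were lower in *ime2Δ* cells than in WT cells at 4 and 6 h. *COX7* was at 2.54 and 2.43 at 0 h, 3.38 and 3.59 at 2 h, 3.31 and 3.53 at 4 h, and 3.67 and 3.44 at 6 h in *ime2Δ* cells. The WT levels of *COX7* were 1.77 and 2.36 at 0 h, 3.69 and 3.98 at 2 h, 4.33 and 4.22 at 4 h, and 4.49 and 4.16 at 6 h. Both WT arrays at 4 h and at 6 h were above all 8 *ime2Δ* arrays. The change at 6 h was 1.07 ± 0.21, adjusted p = 0.00101 in *ime2Δ* cells and 2.25 ± 0.21, adjusted p = 7.88e-07 in WT cells. The difference between strains was -0.86 ± 0.21, adjusted p = 0.00863 at 4 h and -0.77 ± 0.21, adjusted p = 0.00669 at 6 h. For *COX9* the corresponding differences were -0.71 ± 0.17, adjusted p = 0.00677 and -0.43 ± 0.17, adjusted p = 0.0379. Under the 75th percentile scaling the 6 h differences were -0.49 for *COX7* (adjusted p = 0.064) and -0.15 for *COX9* (adjusted p = 0.45), and under quantile scaling they were -0.17 (adjusted p = 0.53) and 0.13 (adjusted p = 0.55). The *COX7* call at 6 h was also lost without WT replicate 1 (adjusted p = 0.0563) or *ime2Δ* replicate 2 (0.0528), and the *COX9* call without any 1 of its 4 arrays (adjusted p of 0.0648 to 0.15), with normexp (0.0837) and in a fit to the compared groups alone (0.131).

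*COX8*, another small membrane subunit gene, rose at 2 h in both strains and differed between them at 6 h. It was at 1.57 and 1.79 at 0 h, 2.56 and 2.83 at 2 h, 2.40 and 2.76 at 4 h, and 2.44 and 2.54 at 6 h in *ime2Δ* cells. WT cells gave 1.17 and 1.64 at 0 h, 2.54 and 3.01 at 2 h, 2.52 and 2.46 at 4 h, and 1.37 and 1.30 at 6 h for *COX8*. At 6 h both WT arrays were back within their 0 h range, below both *ime2Δ* arrays. The difference of 1.15 ± 0.21, adjusted p = 0.000436 was the largest positive one among subunit genes. *COX6*, chosen after its values were seen, had the largest 2 h rise of the complex IV subunit genes in *ime2Δ* cells (1.52 ± 0.25, adjusted p = 0.000485) and rose by 1.81 ± 0.25, adjusted p = 8.48e-05 in WT cells.

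Yeast has a pair of genes for subunit Va/Vb of complex IV, of which *COX5A* is the aerobic isoform and *COX5B* the isoform known from low oxygen. *COX5A* was at 3.26 and 3.23 at 0 h, 3.71 and 3.98 at 2 h, 3.37 and 3.48 at 4 h, and 3.44 and 3.28 at 6 h in *ime2Δ* cells. In WT cells *COX5A* was at 2.67 and 3.06 at 0 h, 3.94 and 4.15 at 2 h, 3.60 and 3.78 at 4 h, and 3.30 and 3.58 at 6 h. It rose at 2 h in both strains, by 0.60 ± 0.18, adjusted p = 0.0184 in *ime2Δ* cells, where the call was lost without either 0 h array or replicate 2 of the 2 h arrays (adjusted p of 0.0623 to 0.138), and by 1.18 ± 0.18, adjusted p = 0.000194 in WT cells. At 6 h the strains overlapped, with a difference of -0.08 ± 0.18, adjusted p = 0.698.

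*COX5B* moved in the opposite direction at 2 h and then differed between the strains. It was at -0.12 and 0.18 at 0 h, -1.07 and -1.19 at 2 h, -0.91 and -0.77 at 4 h, and -0.42 and -1.10 at 6 h in *ime2Δ* cells. WT levels of *COX5B* were 0.64 and 0.92 at 0 h, -1.09 and -1.20 at 2 h, -0.0031 and 0.03 at 4 h, and 1.28 and 1.64 at 6 h. At 2 h the 4 arrays of both strains lay within a narrow range below every 0 h array, with a change of -1.16 ± 0.22, adjusted p = 0.0013 in *ime2Δ* cells and -1.92 ± 0.22, adjusted p = 2.16e-05 in WT cells. At 6 h both WT arrays were above their 0 h arrays (change 0.68 ± 0.22, adjusted p = 0.0139) while both *ime2Δ* arrays stayed below theirs (change -0.79 ± 0.22, adjusted p = 0.00865). The change at 6 h was not called without replicate 2 of the *ime2Δ* 0 h or 6 h arrays (adjusted p of 0.0728 and 0.112) or, in WT cells, without replicate 1 of 0 h or replicate 2 of 6 h (0.102 and 0.112). The difference between strains at 6 h, -2.22 ± 0.22, adjusted p = 2.46e-06, was the largest of the 53 genes in either direction, put *ime2Δ* cells at 0.214 of the WT level, and held under every alternative tried.

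In *ime2Δ* cells 2, 3 and 3 of the 10 complex IV assembly factor genes rose and 0, 1 and 2 fell at 2, 4 and 6 h, and in WT cells 3, 5 and 5 rose and 1, 1 and 1 fell. Of all genes tested, 17.6%, 23.4% and 24.5% rose and 22.1%, 26.9% and 30.1% fell in *ime2Δ* cells, and 22.2%, 30.7% and 35.3% rose and 27.2%, 31.8% and 35.7% fell in WT cells. *COX23*, whose product is a small intermembrane space protein needed for complex IV, was at -1.94 and -2.08 at 0 h, -1.14 and -0.70 at 2 h, -1.19 and -0.37 at 4 h, and -0.23 and -0.15 at 6 h in *ime2Δ* cells. On the WT arrays *COX23* was at -1.84 and -1.86 at 0 h, -0.47 and 0.17 at 2 h, 0.79 and 0.74 at 4 h, and 1.20 and 1.54 at 6 h. It rose at every time in both strains and was 3.53-fold its 0 h level at 6 h in *ime2Δ* cells and 9.31-fold in WT cells. The WT arrays at 4 and 6 h lay above all the *ime2Δ* arrays. The difference between strains was -1.55 ± 0.27, adjusted p = 0.000981 at 4 h and -1.56 ± 0.27, adjusted p = 0.000286 at 6 h.

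*COX16*, an assembly factor of the inner membrane, was at -0.85 and -0.85 at 0 h, -0.19 and -0.04 at 2 h, 0.0008 and 0.21 at 4 h, and 0.29 and 0.16 at 6 h in *ime2Δ* cells. WT cells had *COX16* at -0.73 and -0.58 at 0 h, 0.07 and 0.18 at 2 h, 0.54 and 0.96 at 4 h, and 1.71 and 1.59 at 6 h. Both WT arrays at 6 h were more than a log2 unit above every *ime2Δ* array, with a change of 1.07 ± 0.17, adjusted p = 0.000196 in *ime2Δ* cells and 2.30 ± 0.17, adjusted p = 9.44e-08 in WT cells. The difference was -1.43 ± 0.17, adjusted p = 1.34e-05. The assembly genes *COX17* and *COX10*, chosen after their values were seen, ran the opposite way. *COX17*, which encodes the copper chaperone, was at -0.44 and -0.94 in *ime2Δ* cells at 6 h, against -1.72 and -1.72 in WT cells (difference 1.03 ± 0.24, adjusted p = 0.00209). *COX10*, which encodes a heme A synthesis enzyme, was at -1.35 and -0.93 in *ime2Δ* cells, against -2.13 and -1.75 in WT cells (difference 0.80 ± 0.26, adjusted p = 0.0155), and was not called without WT replicate 1 (adjusted p = 0.109) or *ime2Δ* replicate 2 (0.122). For both genes the *ime2Δ* arrays at 6 h were above the WT arrays.

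In ATP synthase, 2, 1 and 1 of the 5 F1 subunit genes rose at 2, 4 and 6 h in *ime2Δ* cells and 5, 5 and 2 in WT cells, and 6, 5 and 4 of the 8 Fo and stalk genes rose in *ime2Δ* cells and 8, 8 and 5 in WT cells. None of the 13 fell in any of the 6 comparisons. Among all genes tested, 17.6%, 23.4% and 24.5% rose and 22.1%, 26.9% and 30.1% fell in *ime2Δ* cells. The shares in WT cells were 22.2%, 30.7% and 35.3% higher and 27.2%, 31.8% and 35.7% lower. *ATP15*, which encodes the epsilon subunit of F1, was at 3.41 and 3.02 at 0 h, 4.21 and 4.40 at 2 h, 4.37 and 4.52 at 4 h, and 4.65 and 4.43 at 6 h in *ime2Δ* cells. In WT cells *ATP15* was at 2.97 and 3.24 at 0 h, 4.30 and 4.33 at 2 h, 4.82 and 4.52 at 4 h, and 4.76 and 4.11 at 6 h. All later arrays of both strains were above all 0 h arrays, with a change at 6 h of 1.32 ± 0.22, adjusted p = 0.000323 in *ime2Δ* cells and 1.33 ± 0.22, adjusted p = 0.000149 in WT cells.

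*ATP3*, which encodes the gamma subunit of the rotor, was at 3.61 and 2.98 at 0 h, 3.98 and 3.91 at 2 h, 3.79 and 3.63 at 4 h, and 3.34 and 3.29 at 6 h in *ime2Δ* cells. WT cells had *ATP3* at 2.64 and 2.48 at 0 h, 3.87 and 3.93 at 2 h, 3.93 and 3.84 at 4 h, and 3.77 and 3.31 at 6 h. At 0 h both *ime2Δ* arrays were above both WT arrays, though the difference did not pass the test (0.73 ± 0.21, adjusted p = 0.0658), and at 2 h the strains overlapped. *ATP2*, the catalytic beta subunit gene, was at 4.48 and 4.50 in *ime2Δ* cells at 6 h, against 4.04 and 3.82 in WT cells, a difference of 0.56 ± 0.21, adjusted p = 0.0333 that was called with all 4 arrays and without WT replicate 1, but not without the others. At 0 h *ATP2* was at 5.13 and 4.36 in *ime2Δ* cells, against 3.99 and 3.98 in WT cells, without overlap but with a wider spread between replicates (0.76 ± 0.21, adjusted p = 0.0613).

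In the Fo part and stalk, *ATP7*, a stator stalk gene, was at 2.53 and 2.00 at 0 h, 3.34 and 3.35 at 2 h, 3.17 and 3.12 at 4 h, and 3.12 and 2.95 at 6 h in *ime2Δ* cells. WT levels of *ATP7* were 1.89 and 2.08 at 0 h, 3.47 and 3.49 at 2 h, 3.37 and 3.40 at 4 h, and 3.58 and 3.43 at 6 h. Both WT arrays at 6 h lay above both *ime2Δ* arrays, with a difference of -0.47 ± 0.18, adjusted p = 0.035. The call was lost without any 1 of these 4 arrays, and the difference was -0.18 (adjusted p = 0.395) under the 75th percentile scaling. *ATP4*, also of the stator stalk, had the opposite order at 6 h, with 2.49 and 2.71 in *ime2Δ* cells against 1.98 and 2.15 in WT cells (difference 0.53 ± 0.18, adjusted p = 0.0206), and was not called without WT replicate 1 (adjusted p = 0.097) or *ime2Δ* replicate 2 (0.123). *ATP19*, which encodes a small subunit linked to dimers of the enzyme, rose by 1.22 ± 0.35, adjusted p = 0.0106 at 6 h in *ime2Δ* cells (adjusted p = 0.0552 without replicate 2 of the 0 h arrays) and by 1.48 ± 0.35, adjusted p = 0.00203 in WT cells. *ATP20*, chosen after its values were seen, had the largest 2 h change of the group in both strains, 1.24 ± 0.22, adjusted p = 0.000817 in *ime2Δ* cells and 1.65 ± 0.22, adjusted p = 7.08e-05 in WT cells.

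Of the 6 genes for assembly and expression factors of ATP synthase, 1, 1 and 2 rose and 0, 2 and 1 fell at 2, 4 and 6 h in *ime2Δ* cells, where 17.6% to 24.5% of all genes rose and 22.1% to 30.1% fell. In WT cells 1, 1 and 2 rose and 1, 3 and 2 fell, where 22.2% to 35.3% of all genes rose and 27.2% to 35.7% fell. *ATP22*, which promotes translation of the mitochondrial *ATP6* mRNA, was at -0.28 and 0.11 at 0 h, -0.31 and -0.37 at 2 h, -0.56 and -0.44 at 4 h, and -0.49 and -0.39 at 6 h in *ime2Δ* cells. In WT cells *ATP22* was at 0.10 and 0.09 at 0 h, -0.67 and -0.56 at 2 h, -0.73 and -0.61 at 4 h, and -1.70 and -1.72 at 6 h. Both WT arrays at 6 h lay below all other arrays of either strain. The change at 6 h was -0.35 ± 0.16, adjusted p = 0.0728 in *ime2Δ* cells and -1.81 ± 0.16, adjusted p = 3.8e-07 in WT cells. The difference of 1.27 ± 0.16, adjusted p = 1.74e-05 was the largest positive one of the 53 genes.

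*ATP10*, which acts in assembly of Fo, was at -2.47 and -2.31 at 0 h, -2.65 and -2.36 at 2 h, -3.43 and -3.62 at 4 h, and -4.92 and -3.76 at 6 h in *ime2Δ* cells. WT cells gave -2.43 and -2.75 at 0 h, -2.93 and -2.91 at 2 h, -5.08 and -4.90 at 4 h, and -4.94 and -3.84 at 6 h for *ATP10*. It fell at 4 and 6 h in both strains, and at 4 h both WT arrays lay below both *ime2Δ* arrays. At 4 h the difference was 1.47 ± 0.36, adjusted p = 0.00813, which was not called without replicate 1 of the WT or of the *ime2Δ* 4 h arrays (adjusted p of 0.0501 and 0.0631). At 6 h it was 0.05 ± 0.36, adjusted p = 0.913. *ATP11*, an F1 assembly chaperone gene, went the other way late, with 0.84 and 0.87 in *ime2Δ* cells at 6 h against 2.07 and 2.12 in WT cells, a difference of -1.24 ± 0.18, adjusted p = 6.45e-05.

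**Figure D2:**
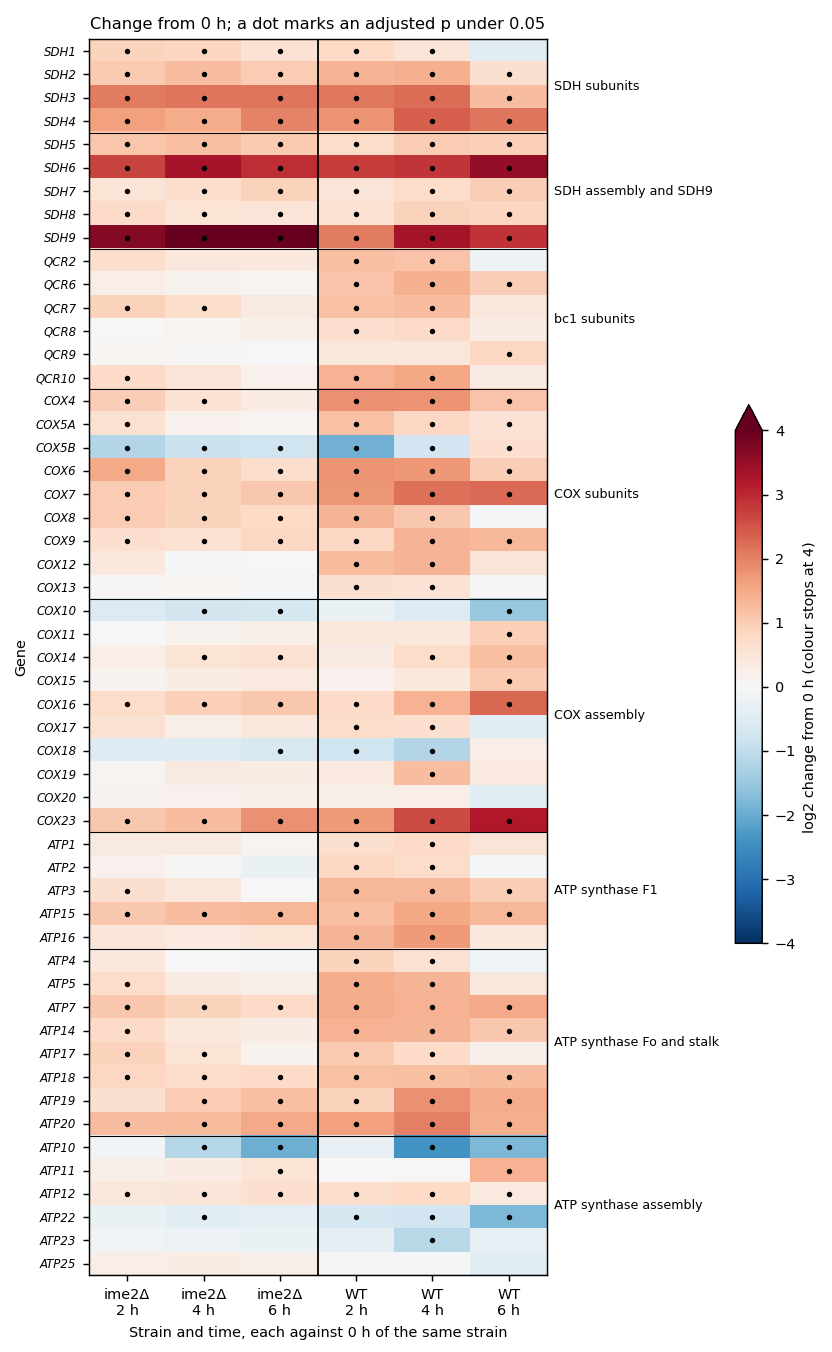
Change from 0 h of each of the 53 genes (rows, grouped by complex), with *ime2Δ* at 2, 4 and 6 h in the left columns and WT at 2, 4 and 6 h in the right columns. Color gives the log2 change (scale stopped at 4 in either direction) and a dot marks an adjusted p under the threshold; *COX5B* is lower than at 0 h in both strains at 2 h, and at 6 h it is lower in *ime2Δ* cells and higher in WT cells.

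The strains were then compared at each time. At 0 h, 1 of 53 genes was higher in *ime2Δ* cells and 0 were lower by limma, when 1.41% of all genes tested were higher and 3.26% lower. At an unadjusted p under 0.05, 8 genes were higher and 3 lower, against 9.13% and 11% of all genes. The 1 gene called was *COX4*, a complex IV subunit gene chosen after its values were seen, at 2.19 and 2.08 in *ime2Δ* cells against 1.19 and 1.56 in WT cells. The difference was 0.75 ± 0.19, adjusted p = 0.0454, and it lost significance without any 1 of the 4 arrays and when arrays were scaled by the 75th percentile or by quantiles. At 2 h 0 genes were higher and 0 lower by limma, against 4.54% and 9.05% of all genes, with 1 higher and 4 lower at an unadjusted p under 0.05, against 12.9% and 14.5%. With slide as a block 3 genes were higher and 1 lower at 0 h, against 3.73% and 5.56% of all genes, and 0 were higher and 2 lower at 2 h, against 8.51% and 11.3%. The median difference of the 53 genes was 0.12 at 0 h and -0.12 at 2 h, and that of the 32 subunit genes was 0.27 and -0.15.

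At 4 h 10 of 53 genes were lower in *ime2Δ* cells, when 16.9% of all genes tested were lower, and 1 (*ATP10*) was higher, when 14.2% were. The 10 were *SDH4*, *QCR6*, *COX5B*, *COX7*, *COX9*, *COX12*, *COX16*, *COX19*, *COX23* and *ATP16*. The median difference was -0.25 for the 53 genes and -0.38 for the 32 subunit genes, of which 27 were below 0, against 0.01 over all genes. *COX12*, a complex IV subunit gene chosen after its values were seen, was at 2.28 and 2.71 in *ime2Δ* cells at 4 h, against 3.64 and 3.35 in WT cells (difference -1.003 ± 0.24, adjusted p = 0.00742). *ATP16*, the F1 delta subunit gene and likewise chosen after its values were seen, was at 1.90 and 2.36 in *ime2Δ* cells, against 3.15 and 2.93 in WT cells (difference -0.91 ± 0.23, adjusted p = 0.00977). Neither gene had overlapping arrays at 4 h. The count of lower genes rested on 1 array, since without replicate 1 of the *ime2Δ* 4 h arrays 1 gene, *COX23*, was called lower, when 9.47% of all genes were, and without replicate 1 of the WT 4 h arrays 6 were. With quantile scaling 10 were lower and 3 higher, against 16.4% and 19.6% of all genes. Within slides the median difference of the 53 genes was -0.33 for replicate 1 and -0.23 for replicate 2. With slide as a block 12 were lower and 1 higher, against 19.7% and 17.9% of all genes.

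At 6 h 11 of 53 genes were higher and 12 lower in *ime2Δ* cells, when 33.1% of all genes tested were higher and 31.1% lower. The higher genes were *SDH1*, *SDH3*, *QCR2*, *QCR10*, *COX8*, *COX10*, *COX17*, *COX20*, *ATP2*, *ATP4* and *ATP22*, and the lower genes were *SDH6*, *QCR6*, *COX5B*, *COX7*, *COX9*, *COX11*, *COX14*, *COX16*, *COX18*, *COX23*, *ATP7* and *ATP11*. Every complex contributed to both directions. The median difference was -0.06 for the 53 genes, against 0.10 over all genes, and within slides it was -0.11 for replicate 1 and 0.08 for replicate 2. With slide as a block 13 were higher and 14 lower, against 36% and 33% of all genes. Complex IV assembly factors held 3 of the higher and 5 of the lower genes. The split depended on how arrays were scaled, with 19 higher and 7 lower under scaling to the 75th percentile and likewise 19 and 7 under quantile scaling, when 44% of all genes were higher and 24.3% lower under the 75th percentile and 39.4% and 25.2% under quantile scaling. The median of all genes moved by 0.28 and 0.19 under these scalings. Of the calls under median scaling, 10 of 11 higher and 6 of 12 lower held under both of these scalings, and the 6 lower genes were *COX5B*, *COX11*, *COX16*, *COX18*, *COX23* and *ATP11*. At 4 and 6 h the middle sporulation genes also differed between strains, with a median level of -4.43 to -4.02 on the *ime2Δ* arrays of these times against 1.74 to 5.10 on the WT arrays, and their part in these differences was not tested.

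**Figure D3:**
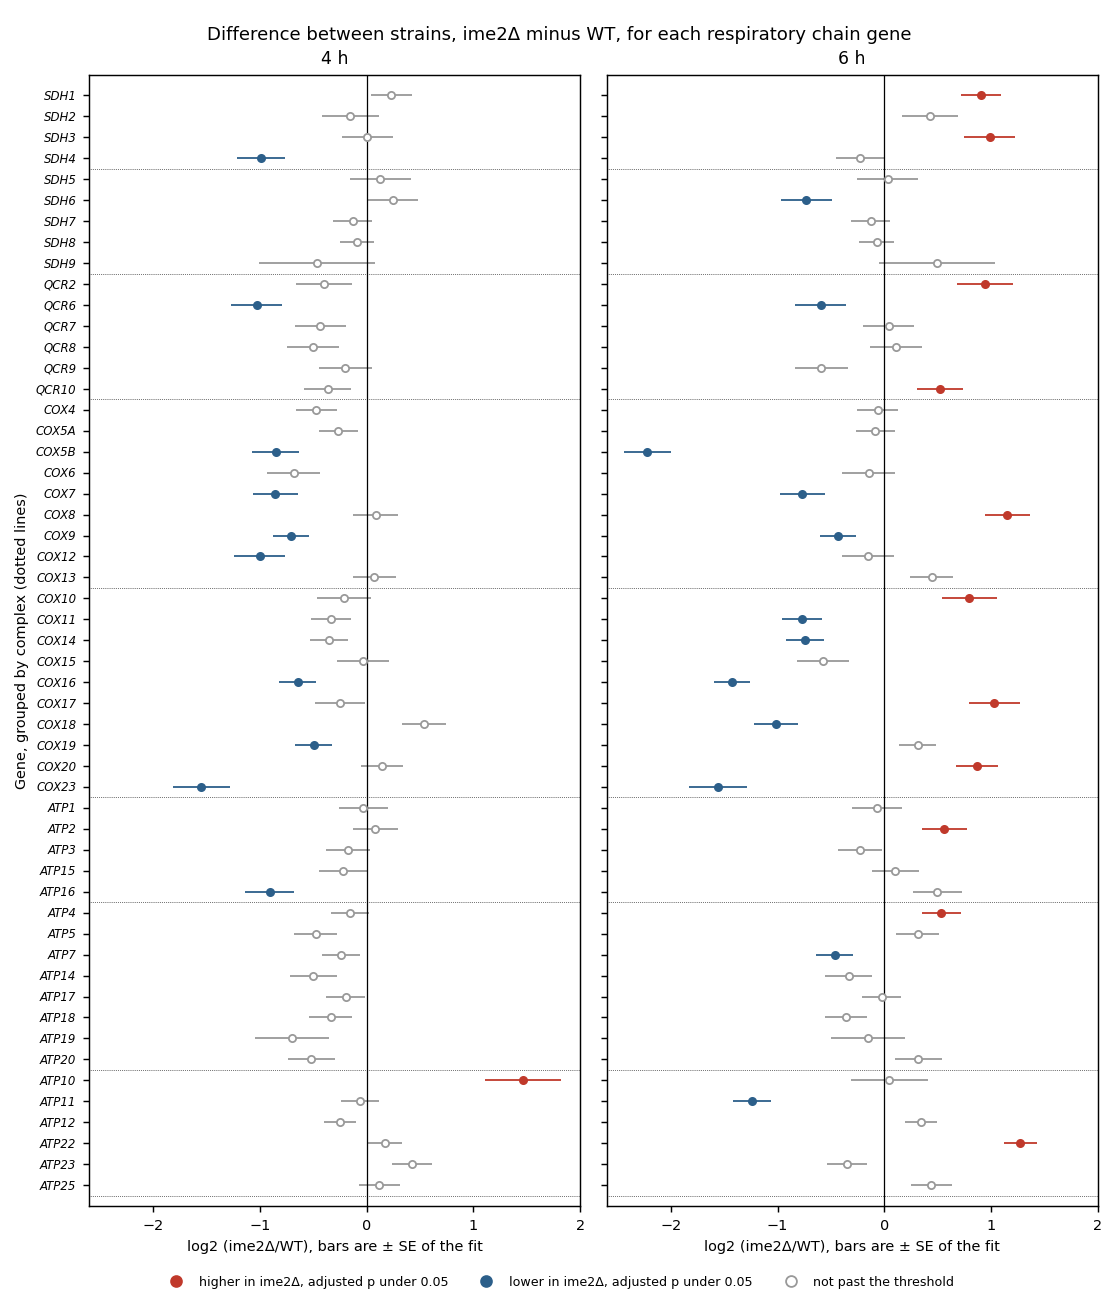
Difference between strains, *ime2Δ* minus WT, at 4 and 6 h for each of the 53 genes (log2, points ± SE of the limma fit, 2 arrays per group). Filled points passed the threshold, and at 6 h they lie on both sides of 0, from -2.22 for *COX5B* to 1.27 for *ATP22*.

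The change from 0 h was tested for a difference between strains in the same fit. At 2 h the change differed in 0 genes in either direction by limma, when 0.863% of all genes had a more positive change and 2.46% a more negative one in *ime2Δ* cells, and at an unadjusted p under 0.05 it was more positive in 1 gene and more negative in 10, against 6.97% and 8.81%. By 4 h the change was more negative in *ime2Δ* cells for 10 genes and more positive for 1, *ATP23*, against 9.37% and 6.2% of all genes. The 10 genes encoded 8 subunits (*QCR6*, *QCR10*, *COX4*, *COX7*, *COX9*, *COX12*, *ATP5* and *ATP16*) and 2 assembly factors (*COX19* and *COX23*). Of the 32 subunit genes 31 had a difference below 0, with a median of -0.67, against 0.01 over all genes. At 0 h 29 of the 32 were above WT in *ime2Δ* cells (median difference 0.27), and this 0 h offset enters the -0.67. The median difference at 4 h itself was -0.38. By 6 h it was more negative for 11 genes and more positive for 6, against 25% and 25.1% of all genes. Here too the scaling mattered. Under the 75th percentile 4 were more negative and 10 more positive, against 20.1% and 35.4% of all genes. Under quantile scaling 4 and 7 were, against 21.2% and 28.9%. At 4 h the count of 10 fell to 1 without replicate 1 of the WT 0 h, *ime2Δ* 0 h or *ime2Δ* 4 h arrays.

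**Figure D4:**
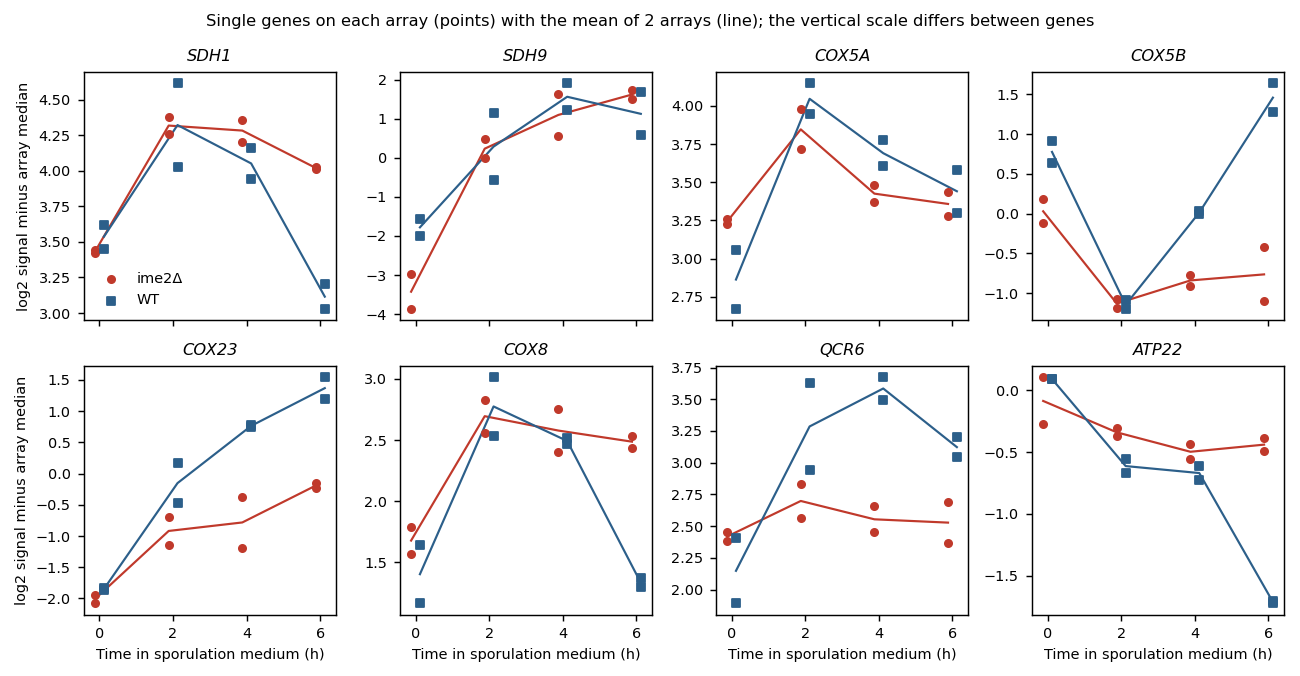
Level of 8 genes on every array (y axis, log2 signal relative to the array median) against hours in sporulation medium (x axis), with *ime2Δ* arrays as circles, WT arrays as squares and lines through the mean of the 2 arrays. At 6 h *ime2Δ* lies above WT in *SDH1*, *COX8* and *ATP22*. In *COX5B*, *COX23* and *QCR6* it lies below WT at 6 h and already at 4 h.

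Genes of respiration without these name prefixes were counted in the same fit for context. Of all genes tested, 17.6%, 23.4% and 24.5% rose and 22.1%, 26.9% and 30.1% fell at 2, 4 and 6 h in *ime2Δ* cells. In WT cells 22.2%, 30.7% and 35.3% rose and 27.2%, 31.8% and 35.7% fell. Tricarboxylic acid cycle genes, which supply the electrons, rose with complex II, as 11, 10 and 11 of 12 rose at 2, 4 and 6 h in *ime2Δ* cells and 11, 12 and 11 in WT cells. At 6 h 2 were higher and 5 lower in *ime2Δ* cells than in WT cells, against 33.1% and 31.1% of all genes. *CIT3*, a mitochondrial citrate and methylcitrate synthase gene, was at 4.33 and 3.94 in *ime2Δ* cells at 6 h, against 2.81 and 2.64 in WT cells (difference 1.41 ± 0.22, adjusted p = 0.000146), and *KGD1*, of the 2-oxoglutarate dehydrogenase complex, was at 3.42 and 3.66 in *ime2Δ* cells against 4.38 and 4.59 in WT cells (-0.94 ± 0.17, adjusted p = 0.000339). Of the 5 remaining genes of complex III and cytochrome c, 2, 1 and 1 rose and 1, 2 and 2 fell in *ime2Δ* cells at 2, 4 and 6 h, and 3, 3 and 1 rose and 1, 1 and 0 fell in WT cells. *CYT1*, encoding cytochrome c1, was at 2.15 and 2.13 in *ime2Δ* cells at 6 h, against 1.49 and 1.37 in WT cells (0.71 ± 0.25, adjusted p = 0.0225), whereas *CYC7*, the cytochrome c isoform known from low oxygen, was at 0.36 and -0.29 in *ime2Δ* cells against 1.50 and 1.43 in WT cells (-1.43 ± 0.35, adjusted p = 0.003).

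The closest relatives of complex II also rose, as both *SHH3* and *SHH4*, paralogs of *SDH3* and *SDH4*, were called higher at each time in *ime2Δ* cells and 1 of them in WT cells. *SHH4* was at 2.25 and 1.50 in *ime2Δ* cells at 6 h, against 0.26 and 0.01 in WT cells (1.74 ± 0.24, adjusted p = 4.81e-05). Of 6 genes for electron donors other than succinate, none was called higher in any of these comparisons, when 17.6% to 35.3% of all genes were. At 2, 4 and 6 h 1, 1 and 2 fell in *ime2Δ* cells, against 22.1% to 30.1% of all genes. In WT cells 0, 2 and 2 fell, against 27.2% to 35.7%. *DLD1*, a D-lactate dehydrogenase gene, was at 2.27 and 1.76 in *ime2Δ* cells at 6 h, against 1.16 and 0.48 in WT cells (1.19 ± 0.27, adjusted p = 0.00216). Among the 5 *HAP* genes, which encode activators of respiratory genes, 1 was higher and 2 lower in *ime2Δ* cells at 6 h. The shares of all genes were 33.1% and 31.1%. *HAP3*, a DNA-binding subunit, was at -0.01 and -0.29 in *ime2Δ* cells, against 1.40 and 1.23 in WT cells (-1.47 ± 0.17, adjusted p = 1.34e-05), *HAP5* was at -0.72 and -0.83 in *ime2Δ* cells against -2.28 and -1.30 in WT cells (1.01 ± 0.24, adjusted p = 0.0029), and *HAP4*, the activating subunit, chosen after its values were seen, was at 1.88 and 2.18 in *ime2Δ* cells against 2.74 and 2.70 in WT cells (-0.69 ± 0.17, adjusted p = 0.00365).

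Further genes linked to complexes III to V without these name prefixes are given for 6 h, when 33.1% of all genes were higher and 31.1% lower in *ime2Δ* cells. Of 15 further assembly genes 4 were higher and 4 lower in *ime2Δ* cells, and *SCO1*, a copper protein of complex IV assembly, was at -0.30 and -0.27 in *ime2Δ* cells against 1.21 and 2.22 in WT cells (-2.00 ± 0.33, adjusted p = 0.000174), while *CBP4*, of complex III assembly, was at 0.54 and 0.41 in *ime2Δ* cells against -0.62 and -1.02 in WT cells (1.29 ± 0.22, adjusted p = 0.000232). Of 12 activators of mitochondrial mRNAs 4 were higher and 2 lower. *PET122*, a translational activator of *COX3* mRNA, was at 3.41 and 3.26 in *ime2Δ* cells at 6 h, against -0.52 and -1.15 in WT cells (4.17 ± 0.37, adjusted p = 8.07e-07), and *AEP3* was at -2.07 and -1.85 in *ime2Δ* cells against 0.34 and 0.59 in WT cells (-2.43 ± 0.27, adjusted p = 7.47e-06). Of 9 ubiquinone synthesis genes 5 were higher and 2 lower, among them *CAT5* at 0.90 and 0.83 in *ime2Δ* cells against -0.30 and -0.86 in WT cells (1.44 ± 0.21, adjusted p = 7.14e-05) and *COQ4* at 1.92 and 1.31 in *ime2Δ* cells against 2.51 and 2.82 in WT cells (-1.05 ± 0.22, adjusted p = 0.00113). Of 5 further ATP synthase genes (*INH1*, *STF1*, *STF2*, *TIM11* and *FMC1*) 2 were higher and 0 lower, with *STF1* at 2.42 and 2.09 in *ime2Δ* cells against 1.81 and 1.12 in WT cells (0.79 ± 0.23, adjusted p = 0.00944). The 7 mitochondrially encoded genes gave no call over time in *ime2Δ* cells, and 2 of them fell in WT cells at 4 h, when 31.8% of all genes fell. At 4 h 2 were higher in *ime2Δ* than in WT cells, against 14.2% of all genes. Their median level at 4 h differed widely between replicates, at -0.71 and -1.78 in *ime2Δ* cells and -0.57 and -2.82 in WT cells. With this spread the lack of calls cannot show steady levels, and *ATP6* was not well above background on any array.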

How the data were processed

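The deposited scanner files held the spot intensities of 16 one-color Agilent arrays, extracted by the authors with Agilent Feature Extraction 10.7.1.1 according to the submitters' processing notes, and the processed signal was used. A table of log2 values, which the authors had normalized per array by its median, was deposited as well and was used as an alternative. Here the 2 spots of each probe were averaged as log2 values without spots marked as outliers (0 to 13 per array), and the array median was subtracted. Arrays had a median processed signal of 7580 to 14875, and their number limits the precision. Open reading frame identifiers were paired with RefSeq names, which 5756 of 6256 genes had.

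All 8 groups were fitted together in limma 3.58.1 under R 4.3.3 (lmFit and eBayes, 8 residual degrees of freedom) over 6254 genes, without *IME2* and *TRP1*, which the deletion alters. The study describes the 2 arrays of a group as biological replicates. Per list, the named genes were the 2 with the largest change at 6 h in WT cells and the 2 with the largest difference between strains at 6 h among those called with the same sign in both replicates, with *COX5A* and *COX5B* always named. The members and lists were chosen with earlier results of these data known. The fit was tested on simulated data.

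Same-numbered arrays shared a slide, and their deviations from group means correlated at 0.0752 to 0.535 (median 0.22, over 0.1 in 26 of 28 pairs). Variation shared by slide and variation shared by replicate experiment cannot be told apart. As 2 pairs were not over 0.1 and no label states a pairing, the block was kept as an alternative. Alternatives were scaling to the 75th percentile or by quantiles, the authors' values, background correction by normexp (offset 50), removal of dim probes, a replicate block, culture as a random block, a trended robust prior, a fit to the compared groups alone, a minimum absolute log2 change of 1, and leaving out each array.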

Additional observations from a re-analysis of the deposited data

Results flagged for a closer look

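Changes from 0 h that differed between strains were taken up here, each tested as an interaction in limma over all genes. At 4 h the change differed for 11 of the 53 respiratory chain genes. It was more negative in *ime2Δ* cells for 10 and more positive for 1, against 9.37% and 6.2% of all genes. Among the genes named by rule, the change in *ime2Δ* cells minus that in WT cells was -1.30 for *QCR6*, -1.27 for *COX7*, -0.77 for *COX9* and -1.39 for *COX23*, so all 4 rose less in *ime2Δ* cells or showed no called rise there. Each of these 4 calls was lost in some omissions of 1 array, and those of *QCR6*, *COX9* and *COX23* in most. The *COX9* call was also lost under the 75th percentile (adjusted p = 0.0606) and quantile scaling (0.0684). With normexp both *COX9* (adjusted p = 0.0773) and *COX23* (0.0518) were lost, and in a fit to the compared groups alone *COX9* was (0.0979).

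At 6 h the change differed for 17 of the 53 genes. It was more negative in *ime2Δ* cells for 11 and more positive for 6, against 25% and 25.1% of all genes. Of the 4 complex II subunit genes, *SDH1* (1.01) and *SDH3* (0.89) were called with a more positive change in *ime2Δ* cells, and 3 of 4 were above 0. Of the 5 assembly-related genes of complex II, *SDH9* (2.14) alone was called, and 2 of 5 were above 0, with a median of -0.05. The *SDH9* difference came with 0 h levels of -3.87 and -2.98 in *ime2Δ* cells, against -1.99 and -1.57 in WT cells, and with overlapping 6 h levels. In complexes III and IV the difference for genes named by rule was -0.87 for *QCR6*, -1.48 for *COX5B*, -1.18 for *COX7*, -1.23 for *COX16* and -1.40 for *COX23*, but 0.88 for *COX8*. Among genes not named by rule, *COX4*, *COX11* and *COX18* were also called with a more negative change and *COX17* with a more positive one. Each of these calls was lost in some omissions of 1 array. Under the 75th percentile *COX4* (adjusted p = 0.15), *COX11* (0.187) and *COX18* (0.0866) were not called. Quantile scaling lost *COX4* (adjusted p = 0.328), *COX11* (0.0562) and *COX17* (0.09). In ATP synthase the difference was -0.96 for *ATP3*, -0.75 for *ATP7* and -0.87 for *ATP11*, and 1.45 for *ATP22*, which had the most positive value after *SDH9*. The 6 h calls of *SDH1*, *COX5B*, *COX7*, *COX16*, *COX23*, *ATP11* and *ATP22* held in each omission of 1 array, but that of *COX7* was lost under quantile scaling (-0.58, adjusted p = 0.155) and that of *ATP11* under the 75th percentile (adjusted p = 0.0822), quantile scaling (0.0592) and normexp (0.0602). The calls of *SDH3*, *SDH9*, *QCR6*, *COX8*, *ATP3* and *ATP7* were lost in some omissions. Those of *QCR6*, *ATP3* and *ATP7* were also lost under the 75th percentile (adjusted p = 0.182, 0.0894 and 0.167) and quantile scaling (0.461, 0.287 and 0.44). With normexp the calls of *SDH3* (adjusted p = 0.106) and *QCR6* (0.0732) were lost. Groups of 2 arrays are too small for a test of outlying arrays.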

How the results depend on the processing

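All counts here are of the 53 respiratory chain genes with an adjusted p under 0.05 in limma. The shares of all genes called moved with the scaling too, so shifts in these counts are not particular to the 53 genes. In *ime2Δ* cells at 4 h, 23.4% of all genes rose under median scaling and 32.8% under the 75th percentile. The filter on dim probes and the authors' own values moved no count by over 1.5 times. Under 75th percentile scaling the all-gene median shifted by 0.21 to 0.27 in the changes from 0 h other than WT at 6 h, by 0.28 in the difference between strains at 6 h and by 0.30 in its interaction. With that scaling, 1 gene fell in *ime2Δ* cells at 4 h and 2 at 6 h, 0 were higher in *ime2Δ* than in WT cells at 0 h, 2 were higher at 4 h, and 19 were higher and 7 lower at 6 h, with an interaction at 6 h in 10 genes upward and 4 downward. Quantile scaling gave 2 genes that fell in *ime2Δ* cells at 2 h, 0 higher at 0 h, 3 higher at 4 h, 19 higher and 7 lower at 6 h, and interactions of 2 upward at 4 h and 4 downward at 6 h, and it turned the 6 h difference of *COX9* to 0.13. With normexp, 0 were higher at 0 h and 0 had an upward interaction at 4 h. The cause of these shifts was not tested.

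The replicate block, which is also the slide, gave 2 genes that fell in *ime2Δ* cells at 2 h, 5 that fell in WT cells at 6 h, 3 higher and 1 lower at 0 h, 2 lower at 2 h, and 1 with an upward interaction at 2 h, and moved no other count by over 1.5 times. Culture as a random block gave 3 that fell in *ime2Δ* cells at 2 h and 6 that fell in WT cells at 6 h, and the trended prior 2 higher at 0 h. Fitting only the groups compared gave 2 that fell in *ime2Δ* cells at 4 h and 2 at 6 h, 0 higher at 0 h, and interactions of 2 upward at 4 h and 5 downward at 6 h. With a minimum absolute log2 change of 1, at 2, 4 and 6 h 13, 10 and 12 rose in *ime2Δ* cells, 1 fell there at 4 h and 1 at 6 h, 25 rose and 1 fell in WT cells at 2 h, 3 fell at 4 h and 18 rose at 6 h, 0 were higher at 0 h, 3 were lower at 4 h, 3 were higher and 5 lower at 6 h, and interactions were 0 upward at 4 h and 3 upward and 4 downward at 6 h.

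Leaving out 1 array at a time, with the lone array assumed to vary like the other groups, gave 18 to 27 genes that rose and 1 to 2 that fell in *ime2Δ* cells at 2 h, 15 to 22 and 0 to 4 at 4 h, and 2 to 5 that fell at 6 h. Between strains it gave 0 to 3 higher at 0 h, 0 to 2 lower at 2 h, 0 to 1 higher and 1 to 10 lower at 4 h, and 7 to 10 lower at 6 h. For interactions it gave 0 to 2 downward at 2 h, 0 to 0 upward and 1 to 11 downward at 4 h, and 2 to 6 upward and 6 to 12 downward at 6 h. The arrays behind these lows were replicate 2 of *ime2Δ* at 2 h (18), 4 h (15) and 0 h (0 that fell at 4 h), replicate 1 of *ime2Δ* at 4 h (1 lower), replicate 1 of WT at 6 h (7 lower) and, for interactions at 6 h, replicate 2 (2 upward) and replicate 1 (6 downward) of WT at 0 h.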
